A study of Mus musculus with 96 samples.

Results

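The response of mouse liver to phenobarbital was measured in formalin-fixed, paraffin-embedded tissue from which RNA was recovered with an organocatalyst and a PureLink kit. The 12 libraries, of 96 in the series, were those labelled as kept in formalin for 3 months, embedded in paraffin, and exposed to an organocatalyst at 55 °C during an 18-hour RNA isolation with that kit. They came from 6 mice given 600 ppm phenobarbital in the drinking water for 7 days (animals 18B, 18D, 20B, 20D, 75C and 80B) and from 6 controls whose water held 0 ppm (8A, 8C, 8D, 21C, 82B and 90C). All were male B6C3F1 mice, a hybrid strain used in toxicology, aged 10 to 11 weeks. Each library was 1 animal, from pieces of 3 liver lobes that were mixed and flash frozen before any fixation. Set beside them were other portions of the same livers, namely frozen tissue, the same formalin tissue treated with the organocatalyst but isolated with an AllPrep kit, and the same formalin tissue with no catalyst or long heating, 12 libraries of each. RNA was sequenced as strand-specific total RNA after removal of ribosomal RNA and counted per gene.

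Phenobarbital is a barbiturate that activates CAR, a nuclear receptor of hepatocytes, indirectly, by blocking signalling of the epidermal growth factor receptor. CAR then enters the nucleus and, as a partner of RXR, raises transcription of enzymes that oxidise foreign compounds, conjugate them and export them from the cell. Cytochrome P450 enzymes carry out the oxidation with electrons from the reductase POR. In rodents CAR activation is also known to enlarge the liver and to push hepatocytes into division, and to lower genes of glucose and lipid metabolism.

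Library totals over genes ran from 9746243 to 13911213 (median 12498269). The tissue label fitted its markers. Alb averaged 22409 ± 4182 counts-per-million (CPM) in phenobarbital livers and 35080 ± 5849 CPM in control livers (SD, n = 6 each). The 10 cholangiocyte markers listed summed to 112 to 158 CPM with phenobarbital and 119 to 176 CPM in controls. Mitochondrially encoded genes took 4.81% ± 1.03 of counts with phenobarbital and 4.32% ± 0.201 in controls, a difference that the exact two-sided permutation test did not separate (p = 0.286, adjusted p = 0.589 over 4 measures of library makeup). The adjusted p of library totals, genes detected at equal depth and the share of small RNAs was 0.589, 0.589 and 0.645 in the same exact permutation tests. Levels below are CPM with TMM scaling, a normalization by edgeR that makes most genes comparable between libraries. Fold changes and their standard errors (SE) come from edgeR's quasi-likelihood test over all genes that passed its low-count filter, and a gene is called at a Benjamini-Hochberg adjusted p under 0.05.

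Phenobarbital changed 665 of 14311 tested genes (4.65%), 459 of them upward (3.21%) and 206 downward (1.44%). The rises were larger than the falls. The median log2 fold change was 0.96 among genes called higher, -0.49 among genes called lower and 0.00 over all genes tested. Of the genes called higher, 221 more than doubled and 97 rose more than 4-fold, whereas 1 of the genes called lower, Ntrk2, fell below a 4-fold reduction. Protein-coding genes made up 615 of the 665. In 301 of the genes called higher and 106 of those called lower no phenobarbital liver overlapped a control liver. Over all 14311 tested genes the groups were apart in 323 upward (2.26%) and 153 downward (1.07%). Scaling to library totals alone gave 584 higher and 125 lower, and the lower count was 115 without control 8A, 116 without phenobarbital animal 80B and 127 without control 82B. Without both 20B and 80B 372 genes were called, 267 higher and 105 lower, and DESeq2 called 1019.

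**Figure D1:**
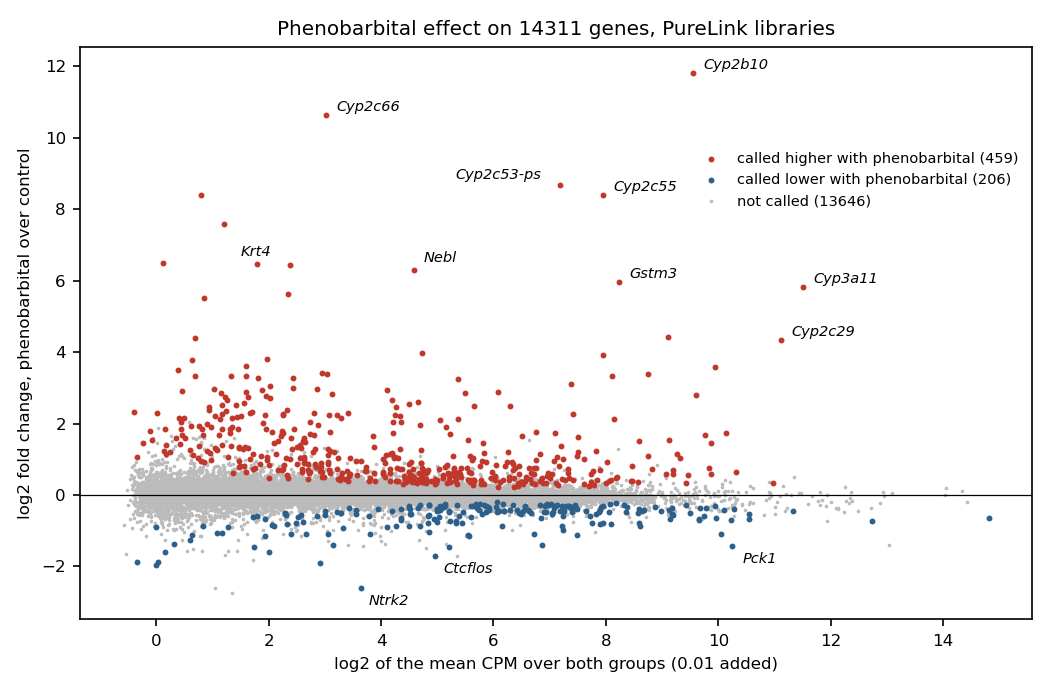
Each point is 1 of 14311 genes, with the log2 of its mean CPM over both groups (0.01 added) on the x axis and its log2 fold change, phenobarbital over control, on the y axis. Red points are the 459 genes called higher and blue points the 206 called lower by edgeR; the P450 genes Cyp2b10, Cyp2c66, Cyp2c53-ps and Cyp2c55 lie furthest above 0 among the labelled genes and Ntrk2 furthest below.

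The P450 genes of subfamilies 2B, 2C and 3A, the textbook CAR targets, rose furthest. Of 30 genes listed 20 passed the low-count filter, and 13 of those were called higher and 0 lower, with a median log2 fold change of 3.54. The other 10 had too few counts to test, among them Cyp2b9 with 50 counts over the phenobarbital libraries and 4 over the controls. Enough counts in treated livers alone let a gene pass the filter, so the share called and the median can be tilted upward. Summed over the list, phenobarbital livers held 14366 to 23021 CPM (median 17047), against 1783 to 2686 CPM (median 2119) in control livers. Near-identical copies are common in these families, so the counting may have split or shared reads between them.

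Cyp2b10 (ENSMUSG00000030483, GRCm38 chromosome 7, 25897620 to 25926624) encodes the P450 used as the standard marker of CAR activity in mice. It had 1112, 1371 and 2156 CPM as lowest, median and highest of the phenobarbital livers, against 0.24, 0.417 and 0.571 CPM in control livers. Every phenobarbital liver was far above every control, and animal 80B was the highest. The log2 fold change was 11.81 ± 0.27 (edgeR adjusted p = 1.06e-12), and its size leans on 30 counts over the 6 control libraries.

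Cyp3a11 (GRCm38 chromosome 5, 145854426 to 145879964), the main CYP3A enzyme of mouse liver, reached 3876, 4834 and 8339 CPM (lowest, median, highest) with phenobarbital, against 24.7, 90.7 and 234 CPM in controls. The groups were well apart, but controls differed among themselves nearly 10-fold. The log2 fold change was 5.82 ± 0.49 (edgeR adjusted p = 3.79e-06). Cyp2c29, an arachidonic acid epoxygenase, had 3551, 3958 and 5375 CPM in phenobarbital livers and 83.2, 206 and 378 CPM in control livers, again with no overlap (log2 fold change 4.33 ± 0.31, edgeR adjusted p = 7.93e-07). Per kilobase of exon, Cyp2c29 averaged 1387 CPM with phenobarbital and 68.8 CPM in controls, Cyp3a11 1127 and 20.0 CPM, and Cyp2b10 708 and 0.194 CPM. On that length-corrected scale Cyp2b10 therefore stood below both of the others in treated livers, although its fold change was the largest.

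**Figure D2:**
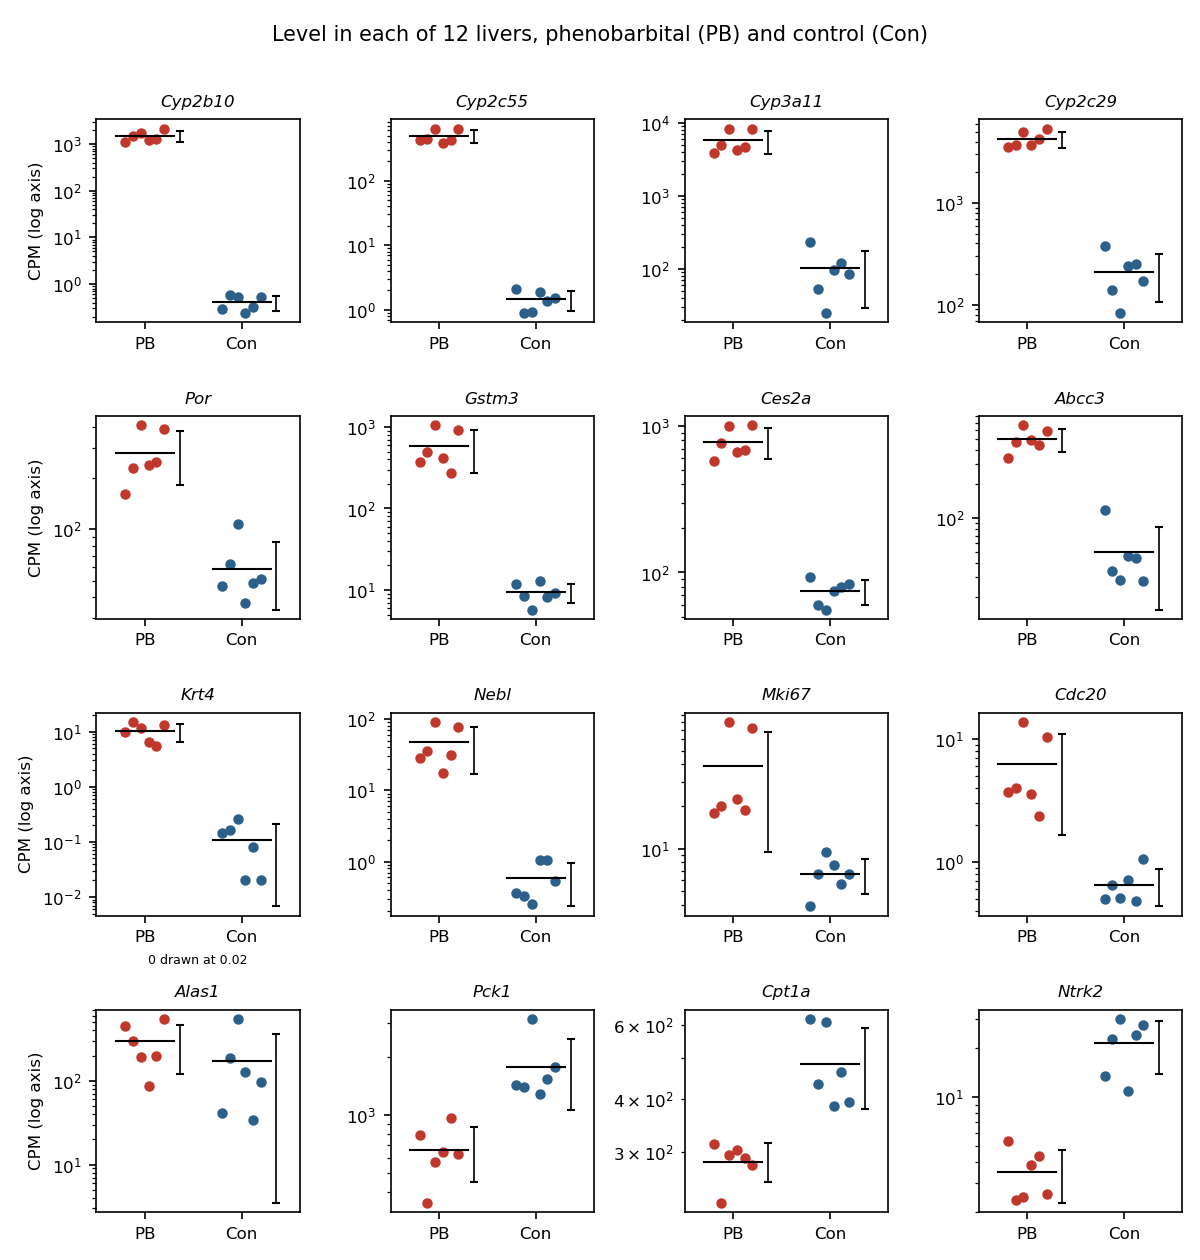
Points are single livers, phenobarbital (PB, red) left of control (Con, blue), on log axes of CPM that differ between panels; lines are group means and bars are ± SD (n = 6 each), and a CPM of 0 is drawn at 0.02 for Krt4. The drug-metabolism genes, Krt4, Nebl, Mki67 and Cdc20 are higher in every phenobarbital liver than in any control, Pck1, Cpt1a and Ntrk2 are lower in every one, and the Alas1 groups overlap, with the lower control bar ending at the axis because the SD (194 CPM) exceeds the mean (173 CPM).

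The Cyp2c genes of chromosome 19 responded by block. In GRCm38 order, 15 genes lie within 1180.3 kb, 13 of them were tested, and 8 were called higher and 0 lower. Cyp2c55, Cyp2c65, Cyp2c66, the pseudogene Cyp2c53-ps and Cyp2c29 stand next to each other at one end and all rose. They are followed by Cyp2c38, Cyp2c39, Cyp2c67 and Cyp2c68, with log2 fold changes of -0.52, 0.48, -0.58 and -0.23 and none called, then by Cyp2c40 and Cyp2c69, which had too few counts. Next come Cyp2c37, Cyp2c54 and Cyp2c50, which rose by 3.92 ± 0.27, 4.44 ± 0.30 and 3.58 ± 0.22 on the log2 scale, and last Cyp2c70, at 0.21 ± 0.17 (edgeR adjusted p = 0.571). The uncalled genes were not all silent. Cyp2c70, which makes muricholic acids in mouse liver, averaged 836 ± 185 CPM with phenobarbital and 722 ± 158 CPM in controls, and Cyp2c67 averaged 137 ± 37.5 and 205 ± 52.4 CPM.

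Within the block at the start, Cyp2c55, an enzyme that oxygenates arachidonic acid, had 389.9, 434 and 642 CPM in phenobarbital livers and 0.897, 1.43 and 2.09 CPM in control livers. The groups did not overlap, and the log2 fold change was 8.39 ± 0.23 (edgeR adjusted p = 6.34e-12). Cyp2c66 had 11.4 to 23.6 CPM (median 15.1) with phenobarbital and 0 counts in all 6 control libraries. Set against 3 counts for all controls together, the limit that a count of 0 allows for counting error only, it was at least 399-fold higher. With Cyp2c66 at that bound the median of the P450 list stays at 3.54. Cyp2c53-ps had 232, 280 and 361 CPM against 0, 0.679 and 1.44 CPM. Its annotated extent runs into that of Cyp2c29 on the same strand, so some of its reads may belong to Cyp2c29.

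**Figure D3:**
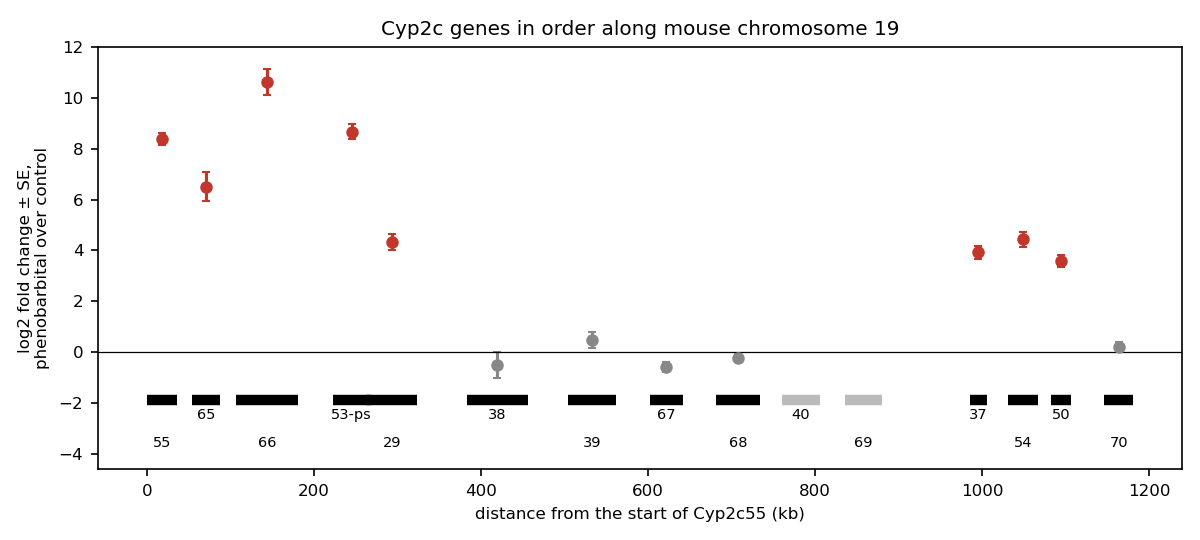
The x axis is the distance in kb from the start of Cyp2c55 on mouse chromosome 19 and the y axis the log2 fold change ± SE, phenobarbital over control, with red points for genes called higher and grey points for genes not called. Bars below give each gene's extent and its number (29 stands for Cyp2c29), grey where too few counts allowed no test; called genes sit at both ends, between 3.58 and 10.63 (the fitted value of Cyp2c66, with 0 control counts), and uncalled genes lie between and after them.

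Promoters of 3 of the strongest P450 genes are shown because they differ in a short motif bound by nuclear receptors. AGGTCA is the core of the sites at which CAR, PXR and related receptors bind with RXR, and capitals mark it on either strand. The stretches are the 200 bases before the RefSeq start in GRCm38.p6, read 5′ to 3′ on the gene's strand.
Cyp2c29, chr19:39286885-39287084, plus strand: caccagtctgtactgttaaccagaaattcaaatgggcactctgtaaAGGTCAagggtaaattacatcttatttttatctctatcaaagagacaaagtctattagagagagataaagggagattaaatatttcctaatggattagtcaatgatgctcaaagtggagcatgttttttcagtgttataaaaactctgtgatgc
Cyp3a11, chr5:145879855-145880054, minus strand: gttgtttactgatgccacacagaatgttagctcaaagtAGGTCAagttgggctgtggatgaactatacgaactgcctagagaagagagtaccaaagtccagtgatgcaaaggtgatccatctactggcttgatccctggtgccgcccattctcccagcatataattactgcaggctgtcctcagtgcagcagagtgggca
Cyp2b10, chr7:25897458-25897657, plus strand: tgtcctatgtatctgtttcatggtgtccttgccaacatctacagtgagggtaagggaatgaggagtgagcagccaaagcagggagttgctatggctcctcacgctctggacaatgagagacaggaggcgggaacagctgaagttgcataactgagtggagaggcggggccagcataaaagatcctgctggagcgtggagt
The motif begins 154 bases before the start of Cyp2c29 and 162 before that of Cyp3a11, and these letters are not in the window of Cyp2b10, whose known phenobarbital-responsive enhancer lies further upstream. Counted over the 250 bases before each start on both strands, AGGTCA occurred in 5 of the 11 called genes of the P450 list with a RefSeq promoter (45.5%). Cyp2c29 was the only one of them outside the CYP3A subfamily, whose genes are related copies and not independent cases. Cyp2b10 and the other called Cyp2c genes with a promoter had no match. AGGTCA occurred in 17.2% of 354 genes called higher, in 13.5% of 10099 tested genes and in 15.8% of 27025 genes with a promoter. A match of 6 letters is a description of the sequence and no evidence of binding.

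Other P450 genes moved less and in both directions. Of 31 tested, 8 were called higher and 2 lower, with a median log2 fold change of 0.28. Cyp2a5, which hydroxylates coumarin and nicotine, had 208, 290 and 445 CPM with phenobarbital and 21.9, 29.0 and 61.1 CPM in controls, with no overlap (log2 fold change 3.11 ± 0.25, edgeR adjusted p = 2.67e-06). Cyp1a2, a caffeine-oxidising enzyme of the tissue around central veins, had 675, 794 and 1055 CPM against 241, 263 and 372 CPM in controls, also apart (1.55 ± 0.14, edgeR adjusted p = 5.77e-06). Cyp2d12 rose by 3.39 ± 0.30 from low counts, to 15 ± 5.48 CPM with phenobarbital against 1.42 ± 0.61 CPM in controls. Cyp2d40 went the other way. It had 23.4, 30.3 and 33.1 CPM in phenobarbital livers and 51.1, 65.8 and 76.2 CPM in control livers, a log2 fold change of -1.13 ± 0.12 (edgeR adjusted p = 3.03e-05). Cyp2e1, an abundant ethanol-oxidising P450, averaged 3722 ± 116 CPM with phenobarbital and 3481 ± 658 CPM in controls and was not called (0.10 ± 0.12).

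Some partners of the P450 enzymes rose as well. Among 10 redox partners and epoxide hydrolases tested, 5 were called higher and 0 lower, with a median log2 fold change of 0.29. Por had 161, 246 and 410.1 CPM in phenobarbital livers and 36.8, 49.8 and 107 CPM in control livers. The groups were apart, with control 8A far above the other controls (log2 fold change 2.26 ± 0.27, edgeR adjusted p = 0.000136). Ephx1, which hydrolyses epoxides made by P450 enzymes, had 158 to 245 CPM with phenobarbital and 53.7 to 80.8 CPM in controls (1.74 ± 0.13). Cyb5a, the cytochrome b5 that can hand electrons to P450 enzymes, rose by 1.14 ± 0.11. The P450 enzymes need heme, yet the genes that make and break it down gave 0 called higher and 1 lower of 12, against 3 higher and 0 lower in frozen portions of the same livers. The gene called lower, Cpox, which makes protoporphyrinogen, stood at -0.46 ± 0.12 (edgeR adjusted p = 0.0376) and passed in 12 of 22 alternatives, where its adjusted p was 0.00724 to 0.187. Alas1, the rate-limiting enzyme of hepatic heme synthesis, had 88.0, 249 and 549 CPM with phenobarbital and 33.8, 111 and 551 CPM in controls. These ranges overlap almost fully, since control 8A alone matched the highest treated animal (0.77 ± 0.60, edgeR adjusted p = 0.555).

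Many conjugation and hydrolysis genes were called higher and none of these lists held a gene called lower. Of 21 glutathione transferase genes tested, which couple electrophiles to glutathione, 12 were called higher and 0 lower (median log2 fold change 0.59). Of 19 genes for glucuronidation, 8 were called higher and 0 lower (median 0.54). Of 10 genes for sulfation, 5 were called higher and 0 lower (median 0.49), and the 16 carboxylesterases gave 5 and 0 (median 0.40). The sulfation count was 3 without both 20B and 80B, and the carboxylesterase count was 9 without control 21C.

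Gstm3 had 271, 457 and 1049 CPM in phenobarbital livers and 5.73, 8.89 and 12.8 CPM in control livers. The spread among treated animals was nearly 4-fold, with 20B at the top, and still no control came close (log2 fold change 5.97 ± 0.37, edgeR adjusted p = 1.96e-07). Gstm1, its neighbour in the mu family, had 969 to 1753 CPM against 152 to 268 CPM in controls (2.81 ± 0.19), and Gstt3 of the theta class had 52.0 to 113 CPM against 5.12 to 10.9 CPM (3.24 ± 0.24). Gstp1 and Gstz1 were abundant and not called, at 0.02 ± 0.10 and -0.03 ± 0.07. The mu genes resemble each other closely, and their counts may share reads.

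Ces2a, a carboxylesterase that cleaves ester drugs, had 573, 722 and 1011 CPM in phenobarbital livers and 55.7, 77.4 and 93.4 CPM in control livers, with no overlap (log2 fold change 3.39 ± 0.17, edgeR adjusted p = 2.82e-08). Ces3a, a lipase of the same family, averaged 1854 ± 447 CPM with phenobarbital and 1950 ± 71.5 CPM in controls and was not called (-0.07 ± 0.15). Ugt1a1, the enzyme that conjugates bilirubin, had 186, 215 and 231 CPM with phenobarbital and 72.5, 78.5 and 107 CPM in controls. All treated livers were above all controls, and control 21C stood above the other 5 (1.37 ± 0.10, edgeR adjusted p = 6.59e-07). Ugt2b34, a steroid-conjugating family member, rose by 1.67 ± 0.14, and its near copies may share its reads.

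Of 26 aldehyde dehydrogenases and aldo-keto reductases 8 were called higher and 0 lower, with a median log2 fold change of 0.15. The count was 5 without control 8A, without control 8D or without phenobarbital animal 20B. Aldh1a1, which oxidises retinal, had 1230, 1619 and 2312 CPM in phenobarbital livers and 352, 506 and 685 CPM in control livers, with no overlap (1.73 ± 0.19, edgeR adjusted p = 6.39e-05). Akr1b7 was scarce, with 1.45, 3.06 and 15.8 CPM against 0, 0.0408 and 0.241 CPM in controls, and rose by 6.47 ± 0.91. Its treated animals differed more than 10-fold among themselves.

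Of 20 hepatic transporters, 5 were called higher and 1 lower. Abcc3, which exports glucuronides across the membrane facing the blood, had 342, 484 and 665 CPM with phenobarbital and 27.5, 39.2 and 118 CPM in controls. The groups were apart, though control 21C was far above the other controls, which reached 46.0 CPM (3.33 ± 0.34, edgeR adjusted p = 2.33e-05). Slco1a4, an uptake transporter of organic anions, had 51.5 to 106 CPM against 16.6 to 41.8 CPM (1.54 ± 0.26). The bile salt pump gene Abcb11 and the uptake transporter gene Slco1b2 were not called, at 0.11 ± 0.08 and 0.21 ± 0.11. Without both 20B and 80B the transporters called higher numbered 3.

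Targets of NRF2, the transcription factor of the antioxidant response, gave 7 called higher and 0 lower of 17 (median log2 fold change 0.35). Nqo1, a quinone reductase, had 2.25 to 5.47 CPM with phenobarbital and 0.881 to 2 CPM in controls (1.39 ± 0.25, edgeR adjusted p = 0.0052). Srxn1, which repairs peroxiredoxins, had 47.3 to 102 CPM against 29.8 to 37.0 CPM (1.03 ± 0.18), and the ferritin light chain gene Ftl1 had 546 to 899 CPM against 402 to 481 CPM (0.71 ± 0.12). These steps are small beside those of the P450 genes. The count was 4 without any 1 of 21C, 82B, 8A, 8C, 20B or 80B and to 3 without both 20B and 80B. Of 30 genes listed with CAR and PXR, not all of them nuclear receptors, 2 were called higher and 1 lower. Over all tested genes 3.21% were called higher and 1.44% lower. Nr1i2, the gene of PXR, was called higher and passed in 7 of 22 alternatives, and Hnf4a was called lower and passed in 6 of 22. Ahr, the dioxin receptor, was called higher and passed in 22 of 22. It had 120.1, 157 and 188 CPM in phenobarbital livers and 65.9, 70.2 and 74.6 CPM in control livers (1.15 ± 0.11, edgeR adjusted p = 7.98e-06).

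**Figure D4:**
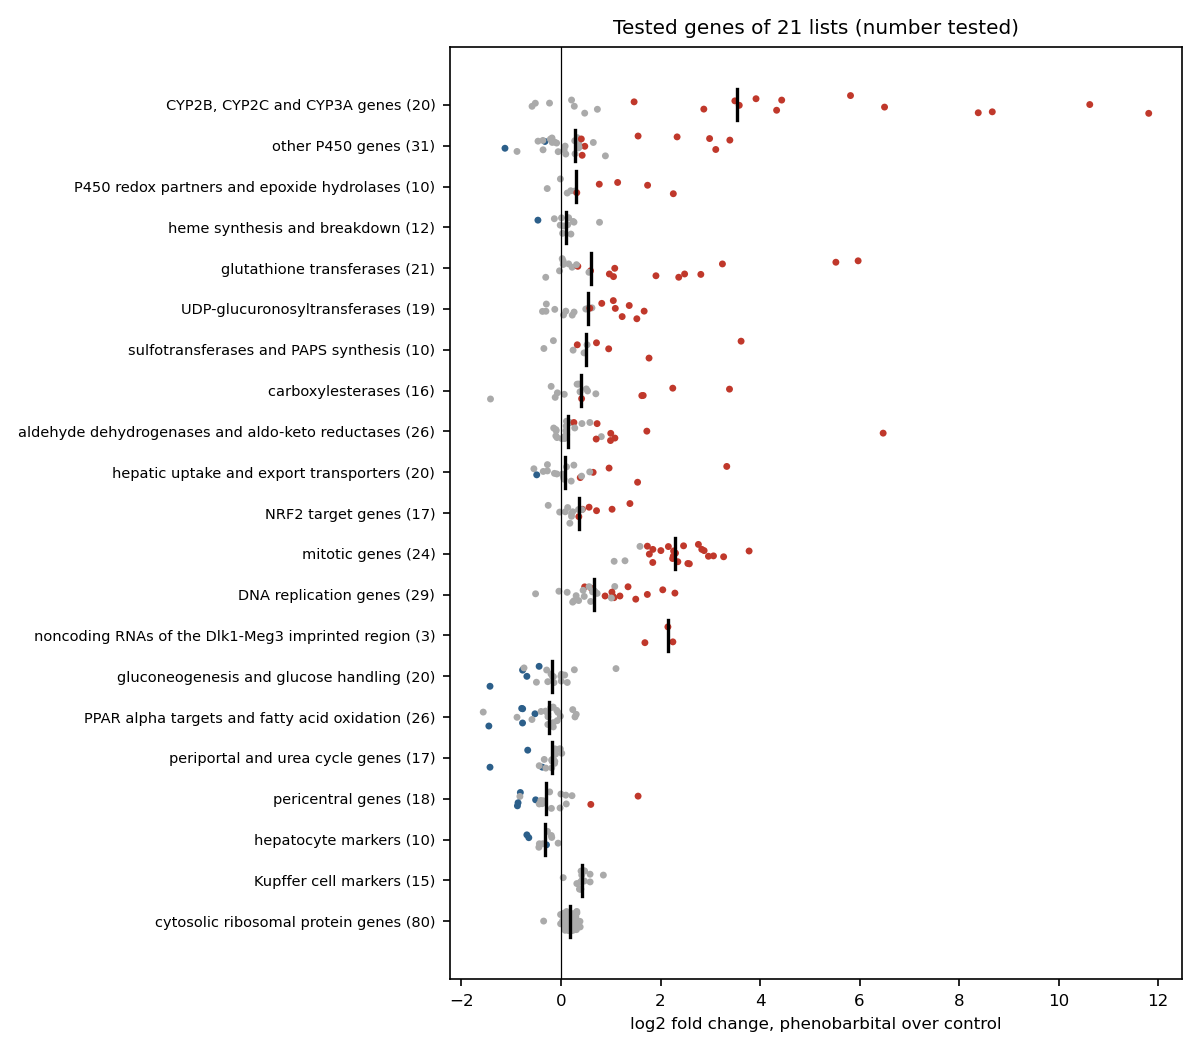
Each row is a gene list with its number of tested genes, each point a gene at its log2 fold change, phenobarbital over control, and each black bar the list's median; red is called higher, blue called lower and grey not called. The medians of the P450 list (3.54), the mitotic genes (2.28) and the Dlk1-Meg3 RNAs (2.15) lie furthest right, and the glucose, fatty acid, zonal and hepatocyte lists have medians between -0.33 and -0.18.

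Several genes outside drug metabolism were among the largest rises. Krt4, a keratin of stratified epithelia, had 5.58, 10.9 and 14.9 CPM in phenobarbital livers and 0, 0.112 and 0.257 CPM in control livers. It was nearly absent from controls, with 8 counts over 6 libraries, and present in all treated livers (log2 fold change 6.45 ± 0.43, edgeR adjusted p = 3.39e-07). The usual hepatocyte keratins Krt8 and Krt18 were not called, at 0.51 ± 0.14 (edgeR adjusted p = 0.0509) and 0.44 ± 0.14 (edgeR adjusted p = 0.108). Krt8 passed in 7 of 22 alternatives, DESeq2 among them (adjusted p = 0.0164), and in frozen portions edgeR called all 3 keratins tested higher. Nebl, an actin-binding protein of muscle Z-discs, had 17.8, 33.6 and 91.0 CPM against 0.257, 0.446 and 1.04 CPM in controls, also with no overlap (6.29 ± 0.51, edgeR adjusted p = 2.67e-06).

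Ccn4, a matricellular protein gene first described as a Wnt target, had 27.4, 31.0 and 37.9 CPM in phenobarbital livers and 3.1, 4.58 and 7.34 CPM in control livers. Treated livers were tightly grouped here, and 80B was the lowest of them (2.66 ± 0.17, edgeR adjusted p = 1.96e-07). Gdf15, a hormone released by stressed cells, had 6.26 to 17.7 CPM against 0.856 to 4.89 CPM (2.30 ± 0.35), and the stress-response pseudokinase gene Trib3 had 7.31 to 15.5 CPM against 1.36 to 4.11 CPM (1.72 ± 0.25). Tfrc, the transferrin receptor that brings iron into cells, had 49.2 to 129.8 CPM against 28.1 to 47.1 CPM (1.16 ± 0.22, edgeR adjusted p = 0.00596). Gadd45b, a CAR-linked growth gene, had too few counts to be tested. It had 0.642, 3.19 and 8.17 CPM with phenobarbital and 0.0815, 0.165 and 0.32 CPM in controls.

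Genes of mitosis were higher, in sum, in every treated liver than in any control, and by far the highest in 2 of them. Of 32 mitotic genes 24 passed the low-count filter, and 21 of those were called higher and 0 lower, with a median log2 fold change of 2.28. Enough counts in treated livers alone let a gene pass that filter, and these genes were scarce in controls. A scarce member that did not rise could thus go untested. The count and the median can therefore be tilted upward, and they hold only for the genes that passed. Summed CPM over the list was 416 in animal 20B and 363 in 80B, and 104, 124, 118 and 81.4 in 18B, 18D, 20D and 75C. Control livers held 29.7 to 46.9. No treated liver overlapped the controls, the 4 lower animals included. Without both 20B and 80B 17 genes were called, DESeq2 called 32, and limma voom with quality weights called 16.

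Mki67, the gene of the proliferation marker Ki-67, had 18.1, 21.3 and 79.7 CPM in phenobarbital livers and 3.89, 6.62 and 9.42 CPM in control livers. The treated median sits close to the lowest value because 2 animals alone carry the top of the range (log2 fold change 2.55 ± 0.42, edgeR adjusted p = 0.00237). Cdc20, an activator of the complex that ends mitosis, had 2.37, 3.84 and 13.8 CPM against 0.481, 0.583 and 1.06 CPM in controls (3.27 ± 0.47, edgeR adjusted p = 0.000751). Prc1, a bundler of spindle microtubules, rose by 3.06 ± 0.44. Foxm1, the transcription factor that drives mitotic genes, rose by 2.58 ± 0.52 (edgeR adjusted p = 0.00981), while limma voom with quality weights gave an adjusted p of 0.0535. Levels of these genes stayed low beside those of the metabolic enzymes.

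DNA replication genes rose less: 12 of 29 were called higher and 0 lower, with a median log2 fold change of 0.66. Uhrf1, which carries DNA methylation through replication, had 1.53, 4.41 and 10.8 CPM in phenobarbital livers and 0.72, 1.07 and 1.44 CPM in control livers. Its groups were just apart (2.29 ± 0.40, edgeR adjusted p = 0.00369). The count of replication genes was 7 without 20B, 7 without 80B, 2 without both and 6 by limma voom with quality weights.

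Promoters of a pair of called mitotic genes are shown, picked from those that hold both motifs known from this class. TTTGAA is the core of the cell cycle homology region, bound by the MuvB complex with FOXM1 or B-MYB, and CCAAT is bound by NF-Y. Capitals mark both on either strand, and the stretches end at the base before the RefSeq start in GRCm38.p6.
Ccnb2, chr9:70421555-70421734, minus strand: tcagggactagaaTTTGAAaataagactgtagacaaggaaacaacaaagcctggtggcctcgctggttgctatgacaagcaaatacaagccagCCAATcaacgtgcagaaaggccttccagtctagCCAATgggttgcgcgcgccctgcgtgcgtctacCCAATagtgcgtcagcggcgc
Cdc20, chr4:118437344-118437463, minus strand: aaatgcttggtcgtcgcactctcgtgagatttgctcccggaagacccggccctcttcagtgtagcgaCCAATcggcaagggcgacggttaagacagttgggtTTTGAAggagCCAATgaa
Ccnb2, the gene of cyclin B2, has CCAAT at 87, 54 and 21 bases before its start and TTTGAA at 167. Cdc20 has CCAAT at 53 and 8 and TTTGAA at 18. Within 250 bases before the start, on both strands, CCAAT occurred in 15 of the 17 called mitotic genes with a RefSeq promoter (88.2%), in 49.2% of 354 genes called higher and in 40.6% of 10099 tested genes. TTTGAA occurred in 8 of the 17 (47.1%), each of which also had CCAAT, against 20.3% and 13.4%. Over all 27025 genes with a promoter the shares were 37.5% for CCAAT and 18.3% for TTTGAA. Matches this short describe the sequence and are no evidence of binding.

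Noncoding RNAs of the Dlk1-Meg3 region, an imprinted cluster on chromosome 12 expressed from the maternal copy, rose together: all 3 with enough counts were called. Meg3 had 2.47, 15.9 and 29.2 CPM in phenobarbital livers and 2.66, 3.35 and 5.33 CPM in control livers. The groups overlapped through animal 80B, which had the lowest treated value here while it was among the highest for mitotic genes. The log2 fold change was 2.15 ± 0.40 (edgeR adjusted p = 0.00536), and limma voom with quality weights gave 1.83 with an adjusted p of 0.0642. Rian followed the same order, with 3.48 CPM in 80B and a median of 15 and a highest value of 29.1 CPM with phenobarbital, against 1.71 to 5.11 CPM in controls (2.25 ± 0.40). Mirg rose by 1.69 ± 0.29. The 3 RNAs lie in a row on 1 strand and may be parts of longer transcripts, so their counts are not independent.

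The largest fall was that of Ntrk2, the receptor for the neurotrophin BDNF. It had 2.34, 3.2 and 5.38 CPM in phenobarbital livers and 10.9, 23.3 and 30.0 CPM in control livers. All treated livers were below all controls (log2 fold change -2.61 ± 0.28, edgeR adjusted p = 3.95e-05). Ctcflos had 12.8, 14.1 and 18.6 CPM with phenobarbital and 34.9, 41.9 and 81.1 CPM in controls, with 8A the highest control (-1.71 ± 0.19, edgeR adjusted p = 6.14e-05). Ctcflos and Tbx3os1 (-1.60 ± 0.32) are named as antisense to other genes, and without the strand setting of the counting their reads cannot be told apart from those of the opposite strand. Gnat1, the transducin subunit known from rod photoreceptors, had 2.43 to 6.01 CPM against 8.06 to 17.8 CPM in controls (-1.39 ± 0.22). Slc25a22, a mitochondrial glutamate carrier gene, had 51.2 to 85.7 CPM against 95.2 to 187 CPM (-1.10 ± 0.16).

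The glucose genes that were called were lower. Of 20 genes of gluconeogenesis and glucose handling 0 were called higher and 4 lower (median log2 fold change -0.18), and 6 were above 0. There were 7 lower by DESeq2 and 2 without both 20B and 80B, and at most 1 was called higher in other settings. Frozen portions gave 1 higher and 4 lower. Pck1, the enzyme that commits carbon to glucose synthesis, had 350.1, 637 and 967 CPM in phenobarbital livers and 1289, 1495 and 3170.2 CPM in control livers. No treated liver reached the lowest control, and control 8A was far above the rest (-1.43 ± 0.25, edgeR adjusted p = 0.00381). Irs2, an adaptor of the insulin receptor, had 19.9 to 40.0 CPM against 40.7 to 63.4 CPM (-0.77 ± 0.15). Fbp1, fructose-bisphosphatase, had 289.8 to 398 CPM against 431 to 535 CPM (-0.44 ± 0.09, edgeR adjusted p = 0.0143), and without 20B and 80B its adjusted p was 0.0775.

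Fat-burning genes showed the same direction. Of 26 targets of PPARα, the receptor that turns on fatty acid oxidation, 0 were called higher and 5 lower, with a median log2 fold change of -0.23 and 3 members above 0. Cpt1a, the gate for fatty acids into mitochondria, had 226, 293 and 312 CPM in phenobarbital livers and 386, 449 and 621 CPM in control livers, with no overlap (-0.77 ± 0.13, edgeR adjusted p = 0.00297). The receptor gene Ppara itself had 126 to 207 CPM against 208 to 365 CPM in controls, which only just separated the groups (-0.79 ± 0.15, edgeR adjusted p = 0.00658). Angptl4, an inhibitor of lipoprotein lipase, fell by 1.45 ± 0.34 on the log2 scale with overlapping groups (edgeR adjusted p = 0.0257), and its adjusted p was 0.0521 to 0.0637 without any 1 of 82B, 8A, 18D, 75C or 80B. The list's lower count was 8 by DESeq2, 2 without any 1 of 82B, 8A, 18D or 75C, and 3 without 8D, without 80B or without both 20B and 80B.

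Of the zonal genes, 18 pericentral ones gave 2 higher and 4 lower, and 17 periportal and urea cycle ones gave 0 and 3. Ass1, a urea cycle enzyme of the tissue around portal veins, had 361, 392 and 586 CPM in phenobarbital livers and 646, 675 and 755 CPM in control livers, apart in all animals (-0.67 ± 0.12, edgeR adjusted p = 0.00442). Among pericentral genes Cyp1a2 and Lect2 rose (1.55 and 0.60 on the log2 scale), while Slc1a2, a glutamate transporter, fell by 0.88 ± 0.18 (edgeR adjusted p = 0.00923), with an adjusted p of 0.0507 without 20B and 80B. The pericentral genes called lower numbered 2 with library totals alone or without any 1 of 21C, 8A, 75C or 80B, 1 without 20B and 0 without both 20B and 80B.

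Of 31 cholesterol and fatty acid synthesis genes 1 was called higher and 0 lower, and of 14 bile acid genes 1 and 0. Over all tested genes 3.21% were called higher and 1.44% lower. Scd1, the main desaturase of fatty acids, had 1023, 4555 and 7782 CPM in phenobarbital livers and 7635, 11266 and 18994 CPM in control livers. The ranges barely met, and the gene missed the threshold (-1.40 ± 0.38, edgeR adjusted p = 0.0522). It was called lower in 7 of 22 alternatives, with an adjusted p of 0.00647 by DESeq2 and 0.0462 by limma voom, and over all 22 the adjusted p was 0.00647 to 0.167. Cyp7a1, whose enzyme sets the pace of bile acid production, had 20.9, 37.2 and 51.9 CPM against 20.7, 47.5 and 129 CPM in controls and was not called (-0.77 ± 0.40, edgeR adjusted p = 0.343). Akr1d1, a reductase of the bile acid pathway, rose by 1.08 ± 0.16 (edgeR adjusted p = 0.0012).

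Markers of hepatocytes were lower in median, and those of Kupffer cells (the liver's macrophages), sinusoidal endothelial cells and stellate cells or fibroblasts were higher in median. In frozen portions the latter 3 medians were 0.25, 0.03 and 0.10 on the log2 scale. The other cell types listed had few markers tested and medians near 0 or below. Medians were -0.16 for 5 of 10 cholangiocyte markers, -0.50 for 2 of 13 of T, B and NK cells, -0.10 for 3 of 8 of neutrophils and 0.00 for 7 of 9 erythroid transcripts. Among these, edgeR called the cholangiocyte marker Prom1 higher (log2 fold change 1.39) and the T cell marker Cd4 lower (-1.1). Prom1 passed in 8 of 22 alternatives and Cd4 in 18 of 22. In bulk tissue fewer cells of a type and less RNA per cell cannot be told apart. All 10 hepatocyte markers had negative log2 fold changes (median -0.33) and 3 were called lower, Alb, Hnf4a and Tat. Their sum was 51212 to 71096 CPM in phenobarbital livers (median 63831), against 76596 to 90693 CPM in control livers (median 84708). Called lower were 6 by DESeq2, 5 by limma voom with quality weights, 0 with library totals alone, 1 without 82B, 8A, 20B or 75C, and 0 without 21C, 8C, 8D, 90C, 18D or 80B, or without both 20B and 80B. All 15 Kupffer cell markers tested were above 0 (median 0.42) and edgeR called 0, with 3 at an unadjusted p under 0.05. DESeq2 and both limma fits also called 0. Their sum was 340.4 to 726 CPM in phenobarbital livers (median 505), highest in 20B at 726 CPM and 80B at 674 CPM, and 201 to 534 CPM in control livers (median 399). Of 18 sinusoidal endothelial markers 15 were above 0 (median 0.21) and edgeR called 0, with 6 at an unadjusted p under 0.05 and 1 called by DESeq2. Of 17 stellate and fibroblast markers 16 were above 0 (median 0.18) and 1 was called higher. The part of these cell markers in the other gene groups was not tested.

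The same treatment effect was measured in other portions of the same 12 livers. In frozen tissue, sequenced to 14527636 to 18442730 counts, 1313 of 13929 genes were called (9.43%), with 5.89% of the tested genes higher and 3.53% lower. In the AllPrep catalyst portions, at 10756632 to 13971411 counts, it was 688 of 13934 (4.94%), and in 3-month formalin with no catalyst, at 1264563 to 10217453 counts, 274 of 13018 (2.1%). Depth and spread differ between portions, so the difference in effect was tested gene by gene. Between PureLink and frozen portions 0 of 14932 genes passed (0%), 0 of 14851 passed against AllPrep and 0 of 14395 against 3-month formalin. At an unadjusted p under 0.05 edgeR gave 243, 142 and 233 genes (1.63%, 0.956% and 1.62%). DESeq2, run on 28918, 29141 and 28865 genes, gave 290, 249 and 453 (1.0%, 0.854% and 1.57%). With the animal as a block edgeR gave 890, 757 and 334 (5.96%, 5.1% and 2.32%). Were there no difference in any gene, a calibrated test would pass a share of about 0.05. DESeq2 and the blocked fit also gave 0 after adjustment in all 3 comparisons.

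Simulated data were built on these libraries, with changes planted only in genes with many counts. The recovered shares therefore do not hold for scarce genes. Simulated libraries were also drawn as independent, although the real portions share animals. The PureLink comparison called 56.7% of the genes changed 1.5-fold, 91% of those changed 2-fold and 100% at 4-fold. A difference in effect between PureLink and frozen portions was recovered in 43.3% of genes at 1.5-fold, 83.6% at 2-fold and 97% at 4-fold. Smaller differences could thus be missed, and a gene that was not called may still differ.

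Effects of 9 named genes are compared here, in all 4 portions for Cyp2c29 and between PureLink and frozen portions for the others. The intervals given first treat the libraries as separate animals, and those of the fit with the animal as a block follow. For Cyp2c29 the log2 effect was 4.33 ± 0.31 in PureLink, 4.33 ± 0.33 in AllPrep, 4.39 ± 0.27 in 3-month formalin and 4.41 ± 0.35 in frozen portions. Its difference between PureLink and frozen was -0.09 (95% interval -1.0 to 0.83). For Cyp3a11 the same difference was -0.09 (-1.33 to 1.15), for Por -0.22 (-0.99 to 0.56), for Gstm3 -0.11 (-1.06 to 0.84) and for Abcc3 0.07 (-0.93 to 1.08). It was 0.18 (-1.19 to 1.54) for Mki67, 0.32 (-0.65 to 1.29) for Ntrk2, -0.07 (-0.78 to 0.65) for Pck1 and -0.03 (-0.41 to 0.36) for Cpt1a. Because the portions come from the same livers, the blocked fit gave narrower intervals. There Cyp2c29 differed by -0.14 (-0.35 to 0.07), Por by -0.18 (-0.40 to 0.04), Gstm3 by -0.14 (-0.36 to 0.07) and Cyp3a11 by -0.06 (-0.25 to 0.13). The difference was 0.20 (-0.07 to 0.48) for Mki67, 0.29 (-0.10 to 0.68) for Ntrk2, -0.08 (-0.26 to 0.09) for Pck1, 0.04 (-0.17 to 0.25) for Abcc3 and -0.03 (-0.19 to 0.14) for Cpt1a. The interval of each of these 9 genes spans 0 in both fits.

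Of the genes named here, Cyp2b10 had the difference from frozen portions with the lowest p. Its log2 effect was 11.81 ± 0.27 in PureLink, 12.43 ± 0.29 in AllPrep, 11.56 ± 0.44 in 3-month formalin and 13.42 ± 0.29 in frozen portions. The difference between PureLink and frozen was -1.62 (95% interval -2.65 to -0.60; edgeR adjusted p = 1.0), and in the blocked fit it was -1.64 (-2.55 to -0.74; edgeR adjusted p = 0.622). Mean levels were 1495 CPM with phenobarbital and 0.411 CPM in controls in PureLink portions, and 2027 and 0.177 CPM in frozen portions. Treated and control means both differed between the portions, and control levels were near 0 in each. The cause of the difference was not tested.

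Counts of calls by gene list are given side by side for PureLink and frozen portions, with no test because the animals are shared. Over all tested genes 3.21% were called higher in PureLink and 5.89% in frozen portions, and 1.44% and 3.53% lower. The gene-by-gene test of the difference in effect, given above, called 0 genes, so counts that lie apart are not differences in effect that were called. P450 genes of 2B, 2C and 3A called higher were 13 of 20 in PureLink and 14 of 20 in frozen portions, glutathione transferases 12 of 21 and 13 of 21, glucuronidation genes 8 of 19 and 9 of 19, and mitotic genes 21 of 24 and 27 of 28. PPARα targets called lower were 5 of 26 and 6 of 27. Counts lay further apart for NRF2 targets called higher, 7 of 17 and 11 of 17, and for carboxylesterases, 5 of 16 and 8 of 16. Heme genes gave 0 higher and 1 lower of 12 in PureLink portions and 3 higher and 0 lower of 12 in frozen ones, and keratins called higher were 1 of 3 and 3 of 3. Call counts of the cytosolic ribosomal protein genes stood furthest apart. By edgeR 0 of 80 were called in PureLink portions (median 0.18, 77 above 0) and 41 of 79 were called higher in frozen portions (median 0.23). The difference in effect had a median of -0.07 over the 81 tested for it, and 0 were called. In PureLink portions 21 of the 80 had an unadjusted p under 0.05, DESeq2 called 1 and both limma fits 0.

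Differences between animals recurred in all 4 portions. Animals 20B and 80B had the highest mitotic sums of the treated livers everywhere: 416 and 363 CPM in PureLink, 408 and 337 in AllPrep, 261 and 254 in 3-month formalin and 383 and 368 in frozen portions. The other 4 treated livers reached at most 129 CPM in any of these. The same pair was also frequent among the genes called higher as a whole. Among the 459 genes called higher in PureLink portions, 20B and 80B were the 2 highest treated animals for 232 (50.5%), against 2285 of all 14311 tested genes (16%). Leaving out the lists of mitotic, replication and histone genes, it was 198 of 423 (46.8%). Other genes linked to cell division may remain among the 423. The next most frequent pair among the genes called higher, 18D and 20B, was highest for 37 (8.06%). Over all tested genes the most frequent pair was 18D and 20D, with 2437 (17%). These counts were made after the values were seen. Kupffer cell markers were also highest in these 2 livers, as given above.

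Control livers had their own constant differences. Animal 21C had the highest Abcc3 of all controls in each portion, 118 CPM in PureLink, 103 in AllPrep, 91.3 in 3-month formalin and 136 in frozen portions. Animal 8A had the highest Pck1, 3170, 3082, 2297 and 3423 CPM in the same order. Both stayed on their own side of the treated livers for these genes, as the plot of the same livers shows.

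**Figure D5:**
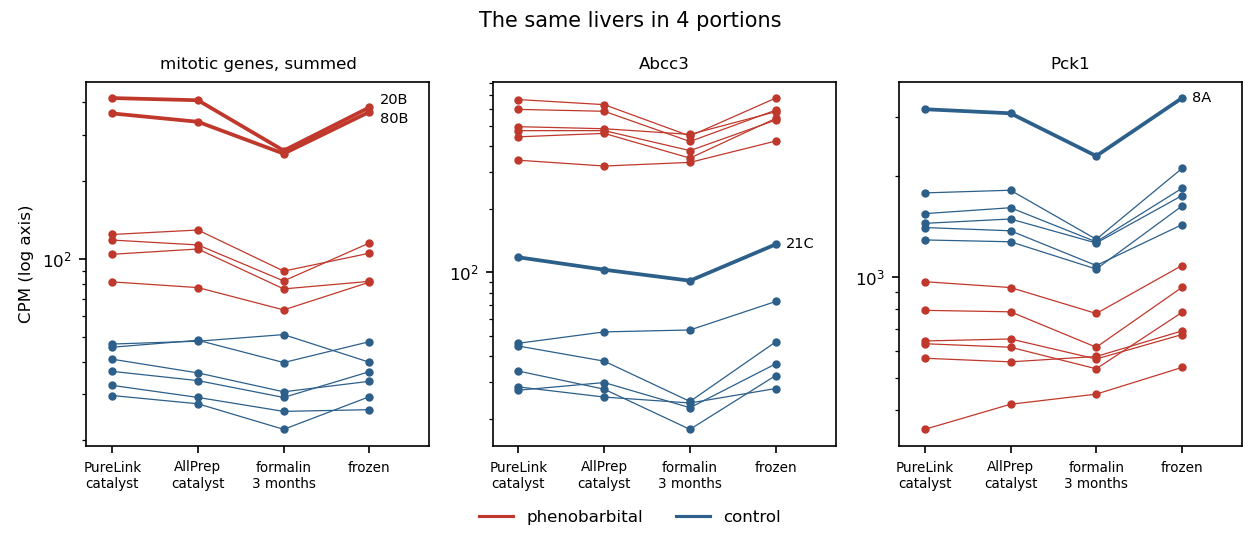
Each line is 1 animal, red for phenobarbital and blue for control, and the y axis is CPM on a log scale for the summed mitotic genes, Abcc3 and Pck1 in 4 portions of its liver. Treated animals 20B and 80B (416 and 363 CPM in PureLink) lead the mitotic sums in every portion, control 21C leads the controls for Abcc3, and control 8A lies highest for Pck1.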

How the data were processed

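Libraries came from ribosome-depleted total RNA of 12 livers per state, per the labels' protocols. Per the submitters' processing notes, CASAVA, STAR 2.5, edgeR and the builds GRCm38 and mm10 were used, with no roles given. How reads were counted (tool, gene models, use of strand) is not given in the sources used here, which leaves antisense, overlapping and near-identical genes uncertain. The deposited counts are raw whole numbers per Ensembl gene, and all main tests used them. A second table deposited by the authors holds log2 values, which match log2 CPM made after adding 0.05, and served 1 alternative. Of 47465 lines 92 were spike-ins (4 counts in these libraries) and were left out. Of 47373 genes 46954 matched GENCODE M21 on GRCm38, and the other 419 held at most 0.0502% of any library's counts.

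Phenobarbital was compared with control, 6 libraries each, by the quasi-likelihood F test of edgeR 4.0.16 in R 4.3.3 with TMM scaling, its default filter by group (about 10 counts in 6 libraries, 15 in all) and Benjamini-Hochberg adjustment at 0.05. Each SE was taken as the size of the log2 change over the root of its F value. Interaction fits over 24 libraries compared the effect with other portions. Intervals are 95%. Titles carry the animal, and the deviations of same-animal libraries correlated above 0.1 in 12 of 12 pairs for each other portion (medians 0.748, 0.802 and 0.507 for frozen, AllPrep and 3-month formalin). Alternatives were DESeq2 1.42.0, limma 3.58.1 (voom with quality weights, or on the authors' log2 values), RLE scaling, library totals alone, no or a stricter filter (1 CPM and 10 counts in 6 libraries), all 96 libraries in 1 fit, thinning to 9746243 counts, the animal as a block, and each animal left out. Leaving out 20B and 80B together was chosen after seeing the data. No 2 libraries held identical counts.

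Members and gene lists were chosen with earlier results of these data known. Of 870 list entries 864 were found as written, 2 through an older symbol and 4 not at all. The rule for named genes took 10 set by name, then, among called genes with non-overlapping groups and a mean of at least 5 CPM in the higher one, the 10 that rose most and the 10 that fell most (predicted genes passed over). It added from each described list up to 4 called members and 2 not called. The other Cyp2c genes, Cyp2b9, Hnf4a, Tat and Ccnb2 were named after their values were seen. Promoters are from RefSeq on GRCm38.p6, where 354 of the 459 genes called higher had one.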

Additional observations from a re-analysis of the deposited data

Results flagged for a closer look

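Over 142 groups of 6 libraries examined, 11 had a highest value set apart from the other 5 by more of the group's range than Dixon's 95% critical value, a gap that chance gives in about 1 in 20 groups. All 11 were in control libraries. Control 8A had 107 CPM of Por, 551 CPM of Alas1, 81.1 CPM of Ctcflos and 3170.2 CPM of Pck1. Control 21C had 104 CPM of Cyp2c54, 513 CPM of Cyb5a, 107 CPM of Ugt1a1 and 118 CPM of Abcc3, and its library was also the deepest, at 13911213 counts. Control 8D had 0.241 CPM of Akr1b7 and, among controls, the most genes detected at equal depth, 20590. In the frozen portions the same animals again had the highest control values for Pck1 (3423 CPM in 8A), Abcc3 (136 CPM in 21C) and Cyp2c54 (111 CPM in 21C).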

How the results depend on the processing

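The 665 calls became 1019 with DESeq2, 372 without both 20B and 80B, and 456 to 709 with 1 animal left out. Calls upward (459) became 267 without both and 331 to 497 with 1 left out. Calls downward (206) became 367 with DESeq2, 125 with library totals alone, 105 without both and 115 to 212 with 1 left out. The cause was not tested. Other settings gave 582 to 816 calls in all. The median of all genes moved by 0.046 (log2) with library totals alone. Differences in effect between portions stayed at 0 calls in every setting run. The animals pair the portions, and with the replicate block by animal there were 0 calls, with a smallest adjusted p of 0.622 against frozen, 0.593 against AllPrep and 1.0 against 3-month formalin. The mitochondrial share kept its direction, with differences of 0.185 to 0.698 percentage points with 1 animal left out. Over named genes and settings, 4001 values kept their direction and their side of the threshold, 215 lost a call and 52 gained one. A further 64 uncalled values changed sign and 1 moved otherwise, and 0 called values changed sign. For counts and medians of lists 2710 stayed and 524 moved, most of them small counts. Depth limited genes under about 10 counts per library.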

Other observations

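Further gene groups are given here, beside the 3.21% of all tested genes called higher and the 1.44% called lower. Of 26 acute phase and interleukin 6 genes 1 was called higher and 2 lower. Their summed level spread widely within groups, from 20385 to 83330 CPM in phenobarbital livers and from 26976 to 72244 CPM in control livers. Il6ra, the interleukin 6 receptor gene, had 33.0 to 62.6 CPM with phenobarbital and 76.6 to 121 CPM in controls, with no overlap (log2 fold change -0.86 ± 0.15, edgeR adjusted p = 0.00358). Hamp, the gene of the iron hormone hepcidin, had 48.1, 119 and 169.7 CPM against 160.5, 245 and 331 CPM in controls. The ranges met at their edges, and the log2 fold change was -1.12 ± 0.26 (edgeR adjusted p = 0.0211), while 5 of 19 iron genes were called higher, Tfrc and the ferritin genes Ftl1 and Fth1 among them (3 without most single animals and by limma on the authors' log2 values).

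Thrsp, a lipogenic gene that responds to thyroid hormone, rose by 1.22 ± 0.30 with overlapping groups (edgeR adjusted p = 0.0346). It passed in 14 of 22 alternatives, with an adjusted p of 0.0031 to 0.0765, and was lost without any 1 of 82B, 8A, 8C, 90C, 18B, 18D, 20D or 80B. Interferon response genes gave 0 calls among 26 by edgeR, with 6 at an unadjusted p under 0.05, 23 above 0 and a median of 0.20. Nuclear-encoded respiratory chain subunits gave 0 of 32 with a median of -0.04, and SR splicing factors 0 of 12 with a median of 0.01, with 0 and 2 at an unadjusted p under 0.05. DESeq2 and both limma fits called 0 in these 3 lists. Rn7sk, a small nuclear RNA that restrains transcription elongation, had 4383 to 4917 CPM with phenobarbital and 5127 to 6034 CPM in controls. Its groups did not overlap, and it was not called by edgeR (-0.23 ± 0.10, adjusted p = 0.21), while DESeq2 called it lower (adjusted p = 0.00188, with 0.00188 to 0.478 over 22 alternatives). In frozen portions the groups overlapped, at 4153 to 5499 CPM with phenobarbital and 5193 to 5841 CPM in controls.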
